A study of Mus musculus with 6 samples.

Results

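Accessible chromatin far from any protein-coding gene was examined in mouse neural progenitors that carried an Nr6a1 virus or a control virus. A desert interval is an interval of the study's peak table, on chromosomes 1 to 19 except 6 and 11, whose midpoint lies more than 500 kb from the nearest start or finish of any RefSeq protein-coding gene. By that rule 594 of the 52223 intervals are desert intervals. They fall in 171 loci on 17 chromosomes, of which 144 are stretches between neighbouring genes and hold 493 of the intervals. The other 101 lie inside 27 protein-coding genes longer than 1 Mb, too far from either end of the gene to count as near it. A desert is named here by the genes on its sides, the one at the lower coordinate first, and a locus inside a gene by that gene.

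The assay was ATAC-seq, in which the transposase Tn5 inserts sequencing adapters into open chromatin, so that fragments pile up where DNA is accessible. There were 3 Nr6a1OE libraries and 3 mScarlet libraries. Nr6a1OE cells received a lentivirus encoding Nr6a1 joined through a 2A peptide to the red fluorescent protein mScarlet3, and mScarlet cells received a lentivirus with mScarlet3 alone. Mouse embryonic stem cells of both groups were first kept in N2B27 medium with 10 ng/ml bFGF, then given the GSK3 inhibitor CHIR99021 at 5 µM on day 2. Retinoic acid at 100 nM and Smoothened agonist (SAG) at 10 nM followed from day 3, and only the SAG was kept from day 5. Transduction also took place on day 5. Cells positive for mScarlet3 were sorted on day 9, and each library was made from 50000 of them. The sort keeps cells that took up virus, and the Nr6a1 level reached in them is not given in the sources used here. Nothing in the labels tells whether libraries of 1 group are separate cultures, and p-values therefore reflect the spread among these libraries alone, which may be technical.

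Gene deserts are long stretches of the genome without protein-coding genes. Those of mammals often flank genes that control development, and some hold enhancers that act on a gene over very long distances. Nr6a1 (germ cell nuclear factor) belongs to the orphan nuclear receptors, is best known as a repressor, and binds a direct repeat of the element AGGTCA with no spacer.

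Each library held 6857763 to 8030029 fragments in intervals, and the first principal component separated the groups. The neural progenitor label was looked at in gene ends. All 10 marker genes of neural progenitors, among them Sox1, Sox2, Pax6 and Nes, had an interval within 1 kb of an end. These had 25.2 to 132 CPM in Nr6a1OE and 26.2 to 134 CPM in mScarlet (CPM, counts per 1000000 fragments in intervals). The 6 markers of post-mitotic neurons had such an interval as well. Among markers of other lineages no such interval was found for Pou5f1, Zfp42, Meox1, Msgn1, Tfap2a, Pecam1, Cdh5, Gata1 and Gata4, while Nanog, Klf4, T, Tbx6, Sox10, Foxd3, Kdr, Sox17 and Foxa2 had one, at 3.37 to 83.3 CPM in Nr6a1OE and 2.70 to 80.5 CPM in mScarlet. Levels at markers of other lineages overlap those at progenitor markers, so an interval at a gene end does not by itself tell the cell type. None of the marker intervals was called different between the groups. At Nr6a1 itself 1 of 8 intervals was more accessible in Nr6a1OE, where fragments from the viral and the endogenous copy cannot be told apart.

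Desert intervals were weak and short. Their median level was 4.21 CPM, against 4.61 CPM for intervals 100 to 500 kb from a gene end, 5.54 CPM at 1 to 100 kb and 40.7 CPM within 1 kb. Their median length was 769.5 bp, with a range of 214 to 3349 bp. The median distance to the nearest gene end was 652 kb. The most remote interval lay 2193 kb from Celf4, in the desert between that RNA-binding protein gene and the lipid kinase gene Pik3c3. Most loci held few of them: 59 held a single one, and the 42 loci with at least 5 held 344 in all.

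Names of noncoding genes were attached to 75 desert intervals, which overlapped 58 such genes. The strongest desert interval, with a mean of 91.8 CPM, lay at the noncoding gene Gm14064 between Jag1, which encodes a Notch ligand, and Btbd3. It had 87.9, 86.1 and 91.3 CPM in Nr6a1OE, against 94.7, 96.1 and 94.5 CPM in mScarlet. All 3 Nr6a1OE libraries lay below the mScarlet libraries, but the log2 fold change, given throughout as Nr6a1OE over mScarlet, was -0.10 and the difference did not pass (edgeR quasi-likelihood adjusted p = 0.330). The next was inside Tenm3, a teneurin gene of neuronal wiring, at 90.2 CPM on average and overlapping the noncoding gene Gm19744. It was followed by an interval in the desert between Zfp608 and Gramd3 at 68.8 CPM, an interval at Rmst, a long noncoding RNA gene between Tmpo and Nedd1, at 57.6 CPM, and an interval between Tmem182 and the POU factor gene Pou3f3 at 57.5 CPM. Log2 fold changes at these 4 were between -0.16 and 0.04, and none was called.

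The rule measures distance from the outermost ends of a gene, so it does not exclude promoters that lie inside a very long gene or that belong to noncoding genes. Of all desert intervals, 15 overlapped the 250 bases upstream of a gene start in RefSeq, 6 of them in loci inside genes and 9 between genes. The 2 strongest of these were at starts of Robo2 and Nrxn3, each over 500 kb inside the gene as annotated. Robo2 encodes an axon guidance receptor for Slit proteins, and Nrxn3 a presynaptic adhesion protein. The Robo2 interval had 54.9, 56.8 and 59.1 CPM in Nr6a1OE, against 57.3, 57.1 and 59.4 CPM in mScarlet. The Nrxn3 interval had 52.4, 50.5 and 54.1 CPM in Nr6a1OE, against 54.9, 52.3 and 54.9 CPM in mScarlet. At both the groups overlapped. None of the 15 promoter intervals was called.

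Upstream bases of 3 of these genes are shown, because promoters are the stretches of desert DNA that the RefSeq tables hold and because the Robo2 and Nrxn3 promoters stand in loci where another interval closed. The 250 bases run 5′ to 3′ along the gene's own strand, from RefSeq on GRCm38.p6, the assembly whose coordinates are those of mm10. Robo2 is at chr16:74411826-74412075 on the minus strand, Nrxn3 at chr12:89812233-89812482 on the plus strand, and Gm46645, a noncoding gene in the desert between Tle4 and Psat1, at chr19:15340348-15340597 on the minus strand. Capitals mark the nuclear receptor element AGGTCA, or TGACCT where it reads on the other strand.
Robo2: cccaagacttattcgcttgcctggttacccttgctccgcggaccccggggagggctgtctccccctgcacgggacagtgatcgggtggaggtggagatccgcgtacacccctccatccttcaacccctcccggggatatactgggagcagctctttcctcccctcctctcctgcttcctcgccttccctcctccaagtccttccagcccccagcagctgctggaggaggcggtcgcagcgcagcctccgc
Nrxn3: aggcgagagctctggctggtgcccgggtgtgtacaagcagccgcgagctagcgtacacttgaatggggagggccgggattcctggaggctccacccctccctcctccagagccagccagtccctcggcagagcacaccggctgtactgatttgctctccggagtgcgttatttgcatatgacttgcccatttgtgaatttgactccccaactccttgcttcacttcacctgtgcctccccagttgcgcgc
Gm46645: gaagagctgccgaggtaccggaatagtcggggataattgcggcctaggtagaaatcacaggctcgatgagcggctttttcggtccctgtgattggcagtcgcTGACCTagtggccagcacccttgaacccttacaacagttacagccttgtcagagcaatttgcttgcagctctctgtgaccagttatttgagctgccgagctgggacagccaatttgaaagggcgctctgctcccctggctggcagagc

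Neither the Robo2 nor the Nrxn3 sequence holds the element, and that of Gm46645 holds 1. On either strand AGGTCA was present in 6 of the 15 promoters (40%), against 14.0% of the 32851 RefSeq promoters of the same length. The direct repeat AGGTCAAGGTCA was in 0 of the 15 and in 0.00609% of all promoters. The extended element TCAAGGTCA, whose last 6 bases are AGGTCA, was also in 0 of the 15, against 0.387% of all. These are matches of letters in 15 windows and carry no test. The Gm46645 interval had a mean of 17.7 CPM and was not called, with a log2 fold change of 0.02.

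A microRNA gene lay in 1 desert interval. Mir344c, whose mature arms span chr7:61837323-61837385 on the minus strand, is in the desert between Gm51483 and Ndn, the imprinted gene of necdin. Its mature RNAs are shown, with the seed (bases 2 to 8) in capitals, because this is the only microRNA of the RefSeq table found in the set.
mmu-miR-344c-5p: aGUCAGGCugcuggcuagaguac
mmu-miR-344c-3p: uGAUCUAGucaaagccugacagu

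The interval over Mir344c had 8.38, 8.05 and 8.07 CPM in Nr6a1OE, against 10.5, 9.61 and 10.7 CPM in mScarlet. The groups did not overlap, yet the log2 fold change of -0.34 did not pass over all intervals (edgeR quasi-likelihood adjusted p = 0.273).

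Of the 594 desert intervals 587 had enough counts to be tested, and 15 of them closed and 2 opened in Nr6a1OE. Closed and opened mean lower and higher accessibility past a Benjamini-Hochberg adjusted p of 0.05 over all 51637 intervals tested, by edgeR's quasi-likelihood test. The 15 are 2.56% of the desert intervals tested (exact 95% interval 1.44 to 4.18%, counting error only), beside a background of 1.26% closed over the whole table. The 2 opened are 0.341%, beside a background of 0.469%. The closed count rested in part on single libraries: it was 5 without Nr6a1OE 1 and 5 without mScarlet 1. Those fits closed 0.845% and 0.847% of desert intervals, beside 0.792% and 0.761% of all intervals. It was 9 without Nr6a1OE 3 (1.52%, beside 0.810% of all intervals), 9 without mScarlet 3 (1.53%, beside 0.777%), 11 without Nr6a1OE 2 (1.86%, beside 0.906%) and 11 without mScarlet 2 (1.86%, beside 1.05%). With DESeq2 3 of the 468 desert intervals that received an adjusted p closed (0.641%) and 1 opened, beside backgrounds of 0.215% closed and 0.00867% opened.

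More desert intervals were lower than higher. Of the 587 tested, called ones included, 339 (57.8%) had a log2 fold change below 0, against 49.2% of all intervals. On the same chromosomes 50.0% of all intervals were below 0, and 55.4% of those 100 to 500 kb from a gene end, so the tilt is not particular to deserts. The median of desert intervals was -0.06, against 0.00 over all intervals. It stayed between -0.08 and -0.04 when each library was left out in turn. The 3 Nr6a1OE libraries lay wholly below the 3 mScarlet libraries at 96 desert intervals and wholly above them at 38. Together these are 22.8% of the 587, beside a background of 16.6% of all intervals, with 8.73% below and 7.89% above. At 100 to 500 kb the share was 19.9% of 5703, with 746 below and 387 above. At an unadjusted edgeR p under 0.05 there were 79 lower and 31 higher desert intervals, or 13.5% and 5.28%, beside backgrounds of 6.87% and 5.73%. Intervals at 100 to 500 kb had 11.8% lower and 5.17% higher. Among the 570 desert intervals that were not called, 324 (56.8%) were below 0, with a median of -0.05. The Nr6a1OE libraries lay wholly below at 81 of them and wholly above at 36.

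**Figure D1:**
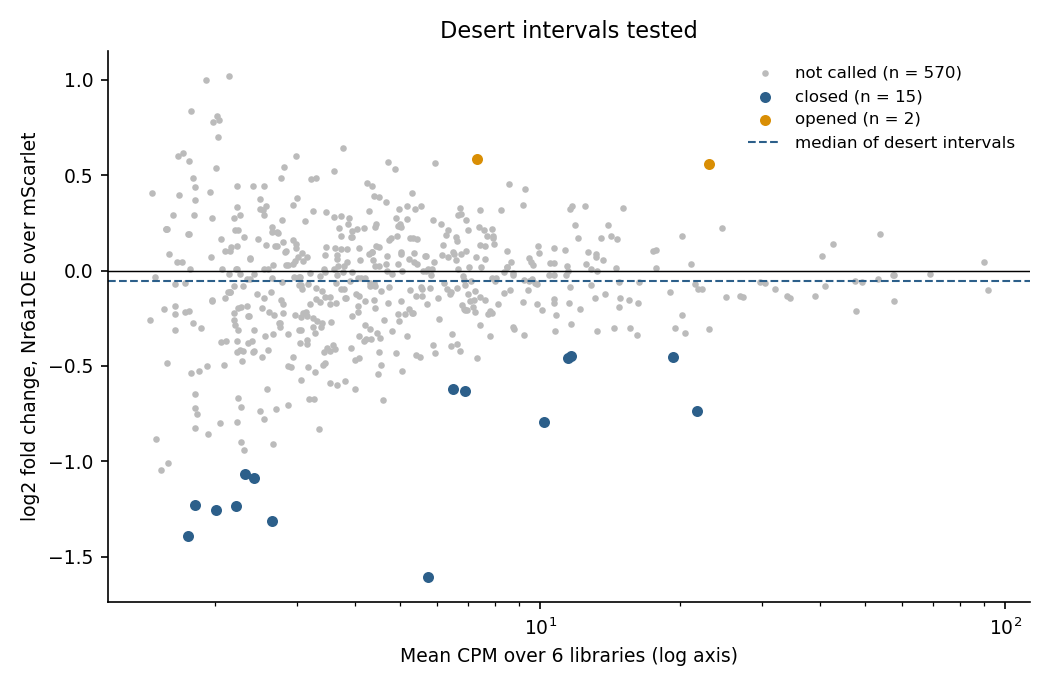
Log2 fold change (Nr6a1OE over mScarlet) of the 587 tested desert intervals against their mean CPM over 6 libraries on a log axis, with the 15 closed, the 2 opened and the 570 uncalled intervals told apart by colour. The dashed line is the median of -0.06, and the 23 intervals of the highest levels, above 24.8 CPM, hold no call.

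Intervals 100 to 500 kb from a gene end closed in 169 of 5703 cases (2.96%) and had a median log2 fold change of -0.03, so the exact intervals of the shares, 1.44 to 4.18% and 2.54 to 3.44%, overlap. Nearer to genes fewer closed, with 339 of 26474 (1.28%) at 1 to 100 kb and 27 of 10522 (0.257%) within 1 kb. Opened shares were 0.341% in deserts, 0.473% at 100 to 500 kb, 0.499% at 1 to 100 kb and 0.238% within 1 kb.

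**Figure D2:**
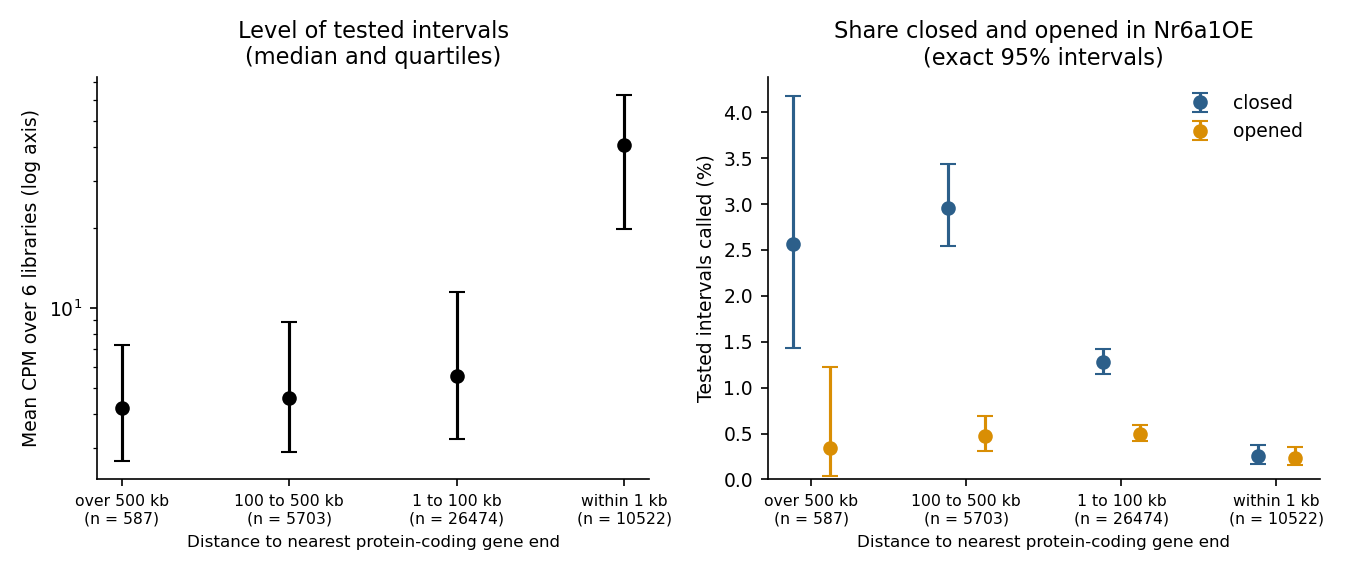
Left, mean CPM of tested intervals by distance to the nearest protein-coding gene end (median with quartiles, log axis). Right, percent of tested intervals closed and opened in Nr6a1OE with exact 95% intervals (counting error only, no test between classes). The exact interval of the desert class, at 2.56% closed, overlaps that of the class at 100 to 500 kb, at 2.96%.

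Level differs between the classes, so the classes were also set side by side within quartiles of mean CPM. In the lowest quartile, up to 3.59 CPM, 7 of 241 desert intervals closed (2.90%), against 2.04% at 100 to 500 kb and 0.739% at 1 to 100 kb. In the second, up to 7.23 CPM, 3 of 198 closed (1.52%), against 2.04% and 0.948%. The third quartile, up to 24.8 CPM, held 5 closed of 125 (4.00%) and both opened intervals, against 4.98% and 2.05% closed. In the highest quartile 0 of 23 desert intervals closed, a count that allows a share of up to 14.8% by the exact interval. Within the deserts, 6 of 373 intervals at 500 to 750 kb closed (1.61%), 6 of 105 at 750 to 1000 kb (5.71%), 2 of 81 at 1000 to 1500 kb (2.47%) and 1 of 28 farther out (3.57%), beside the background of 1.26%.

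Summed per library, the deserts did not differ beyond the spread. They took 0.490%, 0.509% and 0.483% of the fragments on the same chromosomes in Nr6a1OE 1, 2 and 3, against 0.503%, 0.511% and 0.516% in mScarlet 1, 2 and 3. The groups overlapped, and the difference of -0.0157 percentage points had a 2-sided exact permutation p of 0.20, where 3 libraries against 3 cannot go below 0.10. The median log2 CPM of desert intervals relative to that of intervals 1 to 100 kb from a gene end was -0.41 ± 0.034 in Nr6a1OE and -0.35 ± 0.014 in mScarlet (SD, n = 3 each). These did not overlap, and the difference of -0.06 had the smallest exact permutation p the design allows, 0.10, or 0.30 adjusted over 3 such comparisons. Relative to intervals at 100 to 500 kb the difference was -0.02 (exact permutation p = 0.60), and relative to those within 1 kb it was -0.04 (exact permutation p = 0.40).

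**Figure D3:**
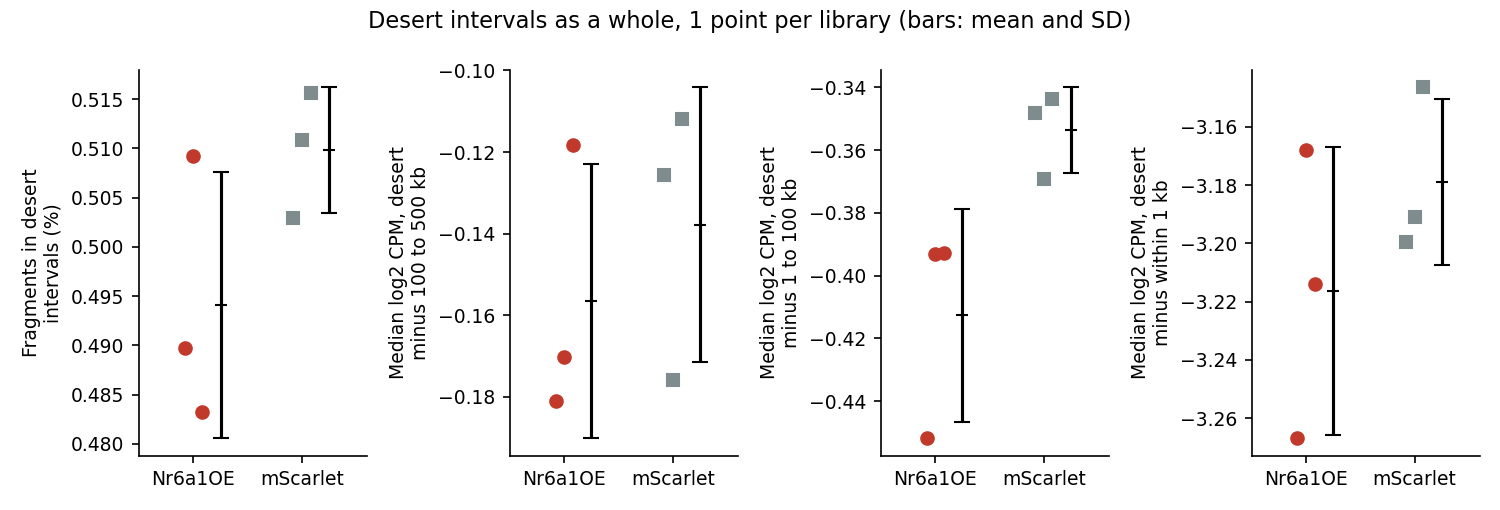
Percent of fragments in desert intervals, and the median log2 CPM of desert intervals minus that of each nearer class, with 1 point per library and the mean with SD beside the points. The Nr6a1OE libraries lie wholly below the mScarlet libraries in 1 of these 4 values, the comparison with intervals at 1 to 100 kb, by 0.06 between the means.

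The desert interval with the lowest fold change lay between Akr1e1, an aldo-keto reductase gene, and Klf6, which encodes a zinc finger transcription factor, 551 kb from Akr1e1 and 701 kb from Klf6 (chromosome 13, 5159905 to 5160642). It had 2.98, 3.11 and 2.40 CPM in Nr6a1OE, against 8.89, 9.32 and 7.74 CPM in mScarlet. The 2 groups were far apart, at -1.61 on the log2 scale (SE 0.20, edgeR quasi-likelihood adjusted p = 1.29e-12). The other 2 intervals of this desert, with log2 fold changes of -0.53 and 0.34, were not called. Summed over its 3 intervals, the desert had 7.66, 9.19 and 6.05 CPM in Nr6a1OE, against 12.5, 15.2 and 12.5 CPM in mScarlet (log2 fold change -0.81, edgeR adjusted p over all summed loci 2.64e-05).

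The strongest interval that closed was near the centre of the desert between the predicted gene Gm42163 and the centromere protein gene Cenpc1, 773 kb from one and 772 kb from the other (chromosome 5, 85239203 to 85240709). It had 16.3, 15.7 and 17.02 CPM in Nr6a1OE, against 29.6, 25.2 and 27.0 CPM in mScarlet. Every Nr6a1OE library was well below every mScarlet library (log2 fold change -0.74, SE 0.097, edgeR adjusted p = 5.68e-11). The sum over the 3 intervals of this desert closed as well (-0.62, adjusted p = 1.07e-08). Of 5 nearer intervals in the same stretch, within 500 kb of a gene end, 1 closed, beside 2.96% of all intervals at 100 to 500 kb.

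Between Tenm3 and Aga, the gene of a lysosomal amidase, an interval overlapping the noncoding genes 1700019L22Rik and Gm2516 closed (chromosome 8, 50392627 to 50393716). It had 7.38, 7.34 and 7.57 CPM in Nr6a1OE, against 11.4, 15.7 and 11.9 CPM in mScarlet. The Nr6a1OE libraries were nearly alike and all below the control (log2 fold change -0.79, SE 0.14, edgeR adjusted p = 1.02e-05).

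Accessibility rose in Nr6a1OE in the desert between Myc, the proto-oncogene transcription factor, and Gsdmc, a gasdermin gene. In the mouse this stretch is known for distant enhancers that act on Myc in blood and in the embryonic face. The opened interval lay 1063 kb from Myc and 723 kb from Gsdmc (chromosome 15, 63052363 to 63053675). It had 27.1, 30.8 and 25.0 CPM in Nr6a1OE, against 18.3, 17.2 and 20.2 CPM in mScarlet. All 3 Nr6a1OE libraries were above the control (log2 fold change 0.56, SE 0.094, edgeR adjusted p = 1.43e-06). The other 5 intervals of the desert had log2 fold changes of -0.04 to 0.84 and were not called, and 4 of them were above 0. Summed over all 6, the desert had 41.4, 49.2 and 41.0 CPM in Nr6a1OE, against 30.5, 31.2 and 34.1 CPM in mScarlet. It was the only desert sum that opened (log2 fold change 0.45, adjusted p = 6.33e-06).

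These 4 intervals, at Akr1e1–Klf6, Gm42163–Cenpc1, Tenm3–Aga and Myc–Gsdmc, were called by DESeq2 and in each of the 6 fits that left out 1 library. The other 13 called intervals were each lost in at least 1 of those 6 fits.

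In the desert between the protocadherin genes Pcdh20 and Pcdh9, whose products are neuronal adhesion molecules, 2 of 7 intervals closed. The more remote from Pcdh20 (chromosome 14, 91866080 to 91866564) had 1.85, 1.55 and 1.14 CPM in Nr6a1OE, against 4.51, 4.22 and 2.62 CPM in mScarlet. Its groups did not overlap (log2 fold change -1.31, edgeR adjusted p = 0.00181), and the call was lost without mScarlet 1 (edgeR adjusted p = 0.0668) and with DESeq2 (adjusted p = 0.230). The other (89985672 to 89986001) had 0.994, 1.55 and 1.01 CPM in Nr6a1OE, against 2.19, 3.20 and 3.12 CPM in mScarlet (log2 fold change -1.26, edgeR adjusted p = 0.0201). It was lost in 4 of the leave-one-out fits, those without Nr6a1OE 1 or 3 and without mScarlet 2 or 3, with edgeR adjusted p up to 0.137. The sum over the 7 intervals closed (-0.38, adjusted p = 0.0152), but not without Nr6a1OE 3 (adjusted p = 0.217) or mScarlet 2 (0.0634).

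Calls beside genes of developmental transcription factors did not hold when single libraries were left out. Of 79 tested intervals in 17 deserts flanked by a listed factor gene, 4 closed and 0 opened (5.06% and 0%, beside backgrounds of 1.26% and 0.469%), with a median log2 fold change of -0.04. Between Arrdc4 and Nr2f2, which encodes the orphan nuclear receptor COUP-TFII, an interval had 8.66, 11.2 and 9.71 CPM in Nr6a1OE, against 13.4, 14.0 and 12.98 CPM in mScarlet (log2 fold change -0.45, edgeR adjusted p = 0.0384). Between Nr2f1, the gene of COUP-TFI, and Arrdc3 an interval had 1.28, 1.69 and 1.64 CPM in Nr6a1OE, against 4.65, 2.77 and 2.50 CPM in mScarlet (-1.09, edgeR adjusted p = 0.0285). Neither pair of groups overlapped, although both intervals were faint or changed little.

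Between Pou3f2, a POU factor gene of neural development, and the DNA repair gene Mms22l, 1 of 13 intervals closed, at the noncoding gene Gm27243. It had 7.52, 10.3 and 10.97 CPM in Nr6a1OE, against 14.6, 12.7 and 12.6 CPM in mScarlet (log2 fold change -0.46, edgeR adjusted p = 0.0322). The groups were apart. The 3 calls named here at factor genes were lost without Nr6a1OE 1 and without mScarlet 1. The Pou3f2 call was lost in each leave-one-out fit except that without Nr6a1OE 3, with edgeR adjusted p of 0.0504 to 0.349. The Nr2f2 call was lost in each except that without Nr6a1OE 2 (0.0803 to 0.238), and the Nr2f1 call in each except those without mScarlet 2 and mScarlet 3 (0.0625 to 0.411).

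Among deserts flanked by genes of signalling ligands, receptors and their modulators, 1 of 66 intervals closed (1.52%) and 0 opened, beside backgrounds of 1.26% and 0.469%. It lay between Slc4a3 and Epha4, which encodes an ephrin receptor, with 0.284, 1.69 and 1.89 CPM in Nr6a1OE, against 3.01, 4.08 and 2.37 CPM in mScarlet (log2 fold change -1.23, edgeR adjusted p = 0.0145). One Nr6a1OE library was far below the others, and without it, Nr6a1OE 1, the log2 fold change was -0.79 and the edgeR adjusted p 0.301. The call was also lost without mScarlet 1 (0.0629) or mScarlet 2 (0.167). Deserts beside cell adhesion and synaptic genes held 3 closed (2.50%) and 0 opened of 120, beside the same backgrounds, the 3 being those of the Pcdh20–Pcdh9 and Tenm3–Aga deserts.

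Inside genes longer than 1 Mb, 3 of 100 tested intervals closed (3.00%) and 0 opened, beside the same backgrounds of 1.26% and 0.469%. The signalling list has 14 such intervals in 3 genes, with 1 closed (7.14%), and the adhesion and synaptic list 52 in 11 genes, with 1 closed (1.92%). In Robo2 the closed interval lay 625 kb from the nearer end (chromosome 16, 74822368 to 74822974), with 4.68, 6.07 and 5.42 CPM in Nr6a1OE, against 8.89, 8.30 and 7.99 CPM in mScarlet (log2 fold change -0.63, edgeR adjusted p = 0.0173). In Nrxn3 it lay 804 kb from the nearer end (chromosome 12, 89530773 to 89531390), with 5.82, 4.94 and 4.67 CPM in Nr6a1OE, against 7.80, 7.57 and 8.24 CPM in mScarlet (-0.62, edgeR adjusted p = 0.0285). In both genes the groups were apart at this interval, while the much stronger intervals over the promoters printed above had log2 fold changes of -0.02 and -0.05. The Robo2 call was lost without Nr6a1OE 1 (edgeR adjusted p = 0.141), Nr6a1OE 3 (0.0671) or mScarlet 1 (0.111), and the Nrxn3 call in all leave-one-out fits except that without Nr6a1OE 1 (0.0520 to 0.167).

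In Pde4d, which encodes a phosphodiesterase that degrades cyclic AMP, 9 of 10 intervals had a log2 fold change below 0 and 1 closed, with 1.70, 1.41 and 1.39 CPM in Nr6a1OE, against 3.42, 2.62 and 3.37 CPM in mScarlet (-1.07, edgeR adjusted p = 0.0398). The call was lost in all leave-one-out fits except that without mScarlet 2 (edgeR adjusted p of 0.0731 to 0.178). This interval, the sum for Pde4d and the interval between Slc39a10 and Tmeff2 below were outside the rule for naming and were added after their values were seen. Summed over the 10 intervals, Pde4d had 73.6, 73.8 and 73.6 CPM in Nr6a1OE, against 83.1, 81.8 and 84.7 CPM in mScarlet. The sums were clearly apart although the shift was small (log2 fold change -0.18, edgeR adjusted p over all summed loci 0.0470). That call was lost in each of the 6 leave-one-out fits (edgeR adjusted p of 0.0570 to 0.172).

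The remaining called intervals were scattered. Between Slc39a10, a zinc transporter gene, and Tmeff2 an interval 1244 kb from the nearer gene had 0.426, 1.69 and 0.757 CPM in Nr6a1OE, against 2.60, 2.62 and 2.37 CPM in mScarlet (log2 fold change -1.39, edgeR adjusted p = 0.0172). An interval between Marcks, the gene of a protein kinase C substrate, and Rfpl4b had 14.3, 19.3 and 15.1 CPM in Nr6a1OE, against 22.2, 23.7 and 21.1 CPM in mScarlet (-0.46, edgeR adjusted p = 0.00164). The second opened interval lay between Nrsn1, a neuronal membrane protein gene, and Hdgfl1, with 8.09, 9.32 and 8.95 CPM in Nr6a1OE, against 5.47, 5.82 and 6.24 CPM in mScarlet (0.58, edgeR adjusted p = 0.0281). At all 17 called intervals the groups did not overlap, beside 16.6% of all intervals tested. Choosing intervals by a low p makes this likely, so it adds no support to the calls. The Marcks call was lost without Nr6a1OE 1 (edgeR adjusted p = 0.0652), with an assumed variation of 10% between cultures (edgeR adjusted p = 0.232) and with DESeq2 (adjusted p = 0.293). The Nrsn1 call was lost in all leave-one-out fits except that without Nr6a1OE 1 (0.0579 to 0.146). The Slc39a10 call was lost without Nr6a1OE 1, Nr6a1OE 3, mScarlet 1 or mScarlet 2 (edgeR adjusted p of 0.0580 to 0.1998).

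**Figure D4:**
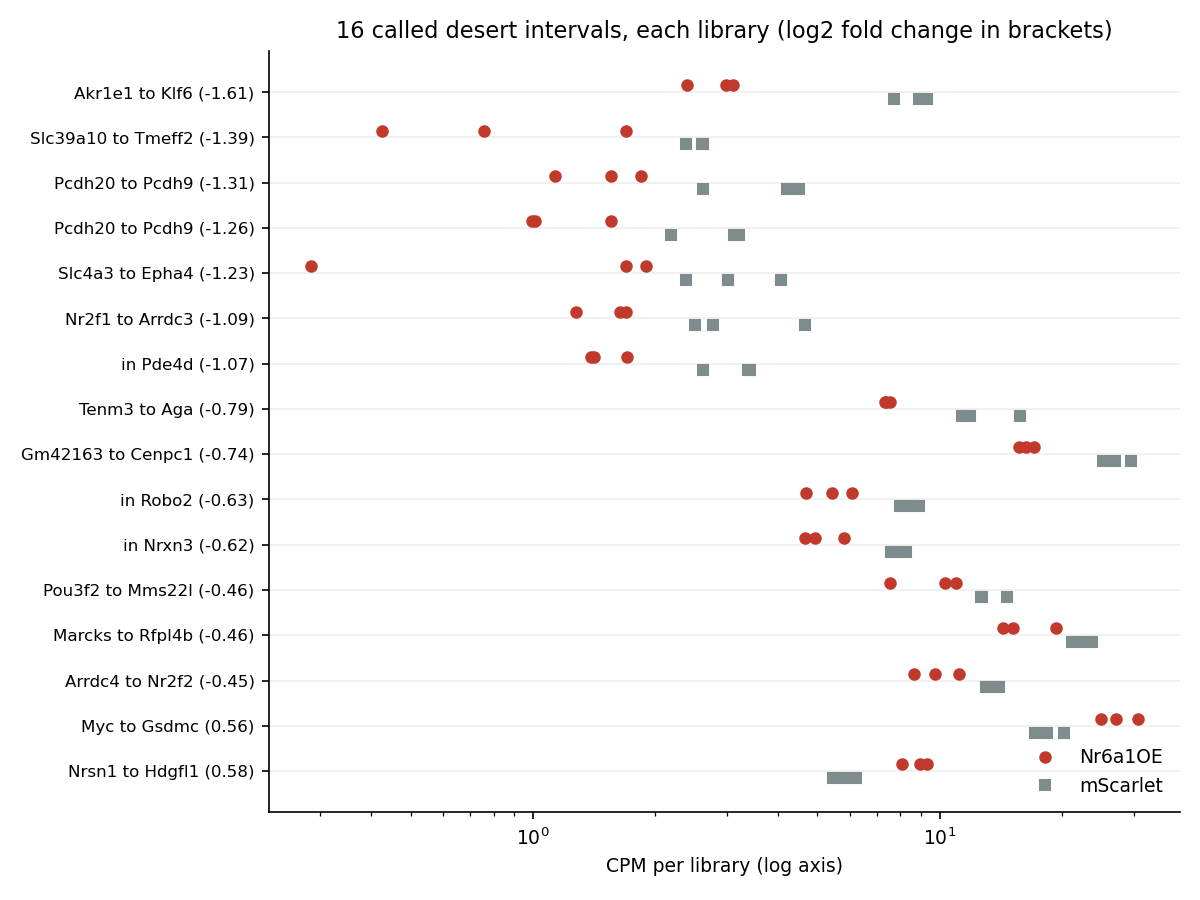
CPM in each library (log axis) of 16 of the called desert intervals, circles for Nr6a1OE and squares for mScarlet, ordered by log2 fold change from -1.61 to 0.58. At every interval the circles and squares do not overlap, which choosing intervals by a low p makes likely. Of those shown, 6 closed intervals have a mean of under 3 CPM, or of 12.8 to 19.3 fragments per library.

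Counts were also summed over the desert intervals of each locus. Of 170 sums tested, 5 closed and 1 opened, or 2.94% and 0.588%, beside backgrounds of 0.967% and 0.586% over all 20486 summed loci. The closed sums include Akr1e1–Klf6, Gm42163–Cenpc1, Pcdh20–Pcdh9 and Pde4d. The count of closed sums was 3 without Nr6a1OE 3, mScarlet 1 or mScarlet 3, and 2 without mScarlet 2. Shares of all summed loci closed in those fits are not given. These counts therefore do not tell whether desert sums moved relative to the background. Of the 170 sums, 108 were below 0, and the share of all summed loci below 0 is not given. The median log2 fold change was -0.06 over the 170, against -4.54e-05 over all 20486 summed loci.

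None of 8 loci with many desert intervals had a called sum. They are the 7 with the most and Robo2, which with 11 ties with Nmbr–Cited2 and Nr2f1–Arrdc3. The 19 intervals between Zfp608 and Gramd3 summed to 219, 221 and 213 CPM in Nr6a1OE, against 219, 227 and 224 CPM in mScarlet (log2 fold change -0.04). The 19 between Celf4 and Pik3c3 summed to 126, 137 and 124 CPM in Nr6a1OE, against 125, 129 and 146 CPM in mScarlet (-0.05). Groups overlapped in both. The sums for Slc10a2–Efnb2 with 18 intervals, Zeb2–Acvr2a with 13, Pou3f2–Mms22l with 13 and Cdh11–Cdh5 with 12 had log2 fold changes between -0.05 and 0.01, and those inside Nrxn3 with 14 and Robo2 with 11 had -0.07 and -0.10. At Robo2 the groups did not overlap, with sums of 144, 145 and 148 CPM in Nr6a1OE, against 150, 157 and 161 CPM in mScarlet. Among these 8 loci, edgeR adjusted p for the sums was 0.177 or more.

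**Figure D5:**
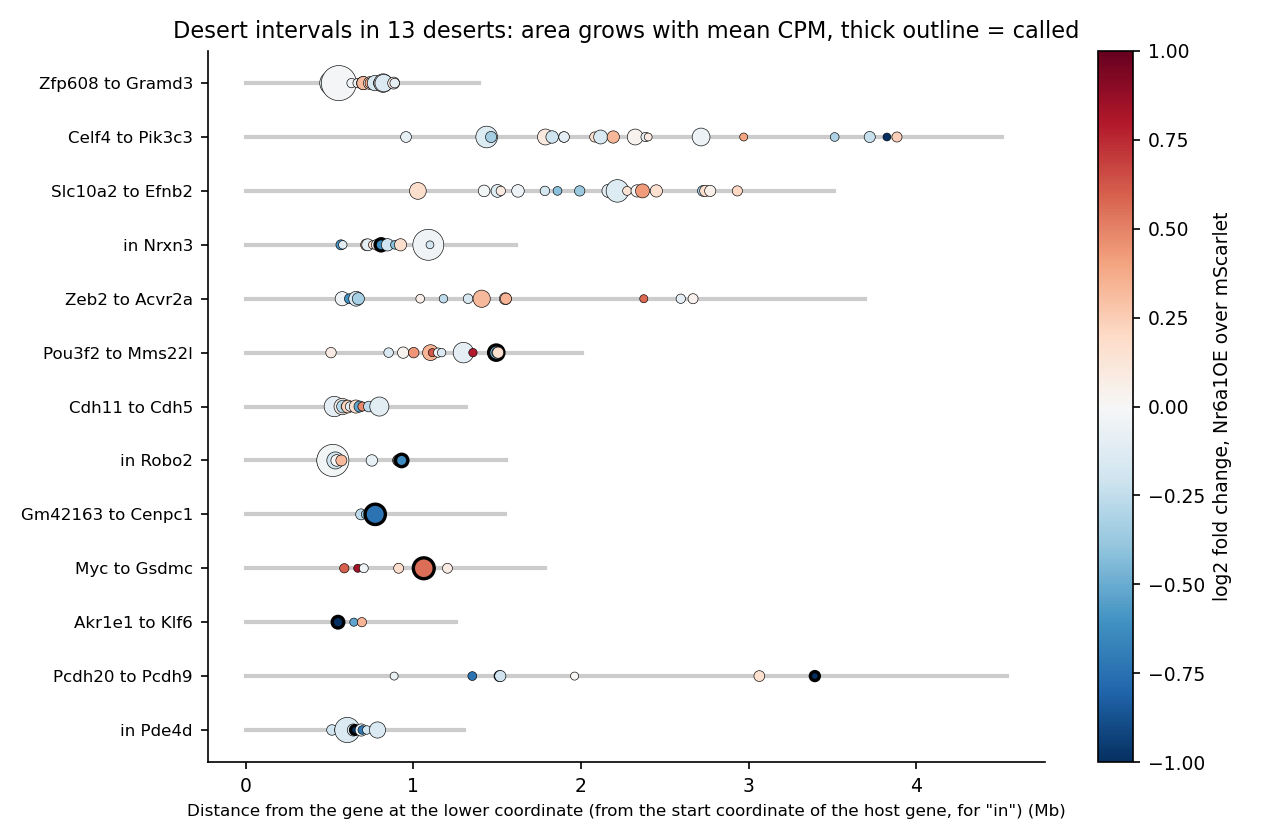
Desert intervals in 13 deserts, 8 with many intervals and 5 with called sums, placed by distance in Mb from the gene (or gene end) at the lower coordinate, with colour for log2 fold change (Nr6a1OE over mScarlet, scale ended at -1 and 1), area for mean CPM and a thick outline for called intervals. In Myc–Gsdmc 5 of 6 intervals are above 0, while in the large deserts values above and below 0 are mixed, as in Pou3f2–Mms22l with 7 above and 6 below.

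The 17 called intervals lay in 16 loci, of which Pcdh20–Pcdh9 held 2. Of the 14 loci with a closed desert interval, 6 also held closed intervals nearer to a gene end. These were 3 of 20 nearer intervals in Nrxn3, 2 of 7 in Robo2, 1 of 15 in Pde4d, 1 of 3 in Pcdh20–Pcdh9, 1 of 5 in Gm42163–Cenpc1 and 1 of 18 in Arrdc4–Nr2f2. Beside them, 2.96% of all intervals at 100 to 500 kb closed, 1.28% at 1 to 100 kb and 0.257% within 1 kb. The loci were picked for a closed interval, and whether closing clusters within loci was not tested. Across the 15 of these loci with further desert intervals, the uncalled ones ran in both directions in 12 and were all below 0 in the other 3. In Nrsn1–Hdgfl1, around an opened interval, all 4 others were below 0 (log2 fold changes of -0.72 to -0.05).

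The distance limit cut through a continuum. Just above 500 kb stood an interval between Gm36448 and Dad1 at 501.2 kb, which had too few counts to be tested, one between Slc5a7 and St6gal2 at 501.5 kb (log2 fold change -0.06) and one between Sox2 and Atp11b at 502.1 kb (0.17). Just below it stood an interval between Adamts16 and Irx1 at 499.6 kb (0.09), one between Sel1l and Gm40892 at 499.4 kb (-0.61) and one between Jag1 and Btbd3 at 499.1 kb (-0.01). None of the 5 tested was called.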

How the data were processed

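The authors deposited 1 table of raw fragment counts, in whole numbers, for 52223 consensus intervals in 6 libraries. Per the file headers, counting was by featureCounts 2.0.1, by read pairs, with 0.2 of a fragment as the smallest overlap. A fragment was counted in every interval it met, so neighbouring intervals that share a fragment are not independent. Of the desert intervals 106 lie within 10 kb of another, and how many share fragments was not counted. The build is mm10, per the submitters' processing notes. Aligner, peak caller, and handling of duplicates, mitochondrial reads and the Tn5 offset: not given in the sources used here.

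Gene ends came from RefSeq (GRCm38.p6), with 21887 protein-coding genes. Counts of all intervals were scaled by TMM, filtered with filterByExpr (586 left out) and compared with edgeR 4.0.16 (glmQLFit, glmQLFTest; R 4.3.3) over 6 libraries with no covariate, Benjamini-Hochberg adjusted over 51637 intervals. An SE was derived from each log2 fold change with its F value. Counts summed per locus, separately for desert and other intervals, were fitted alike over 20486 rows. Single values per library were compared by exact permutation tests (scipy 1.17.1), and log2 CPM used a prior count of 2. Named by rule were the up to 10 closed and 10 opened intervals with the largest change (mean of at least 20 counts, groups apart), the 5 strongest, the 8 deserts with most intervals (ties in table order), up to 5 called sums, called intervals beside listed genes, and 3 on each side of the limit. The members and gene lists were chosen with earlier results of these data known.

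Replicates exceeded counting noise in every pair (chi-square over its degrees of freedom 1.05 to 1.10 within groups and 1.27 to 1.44 between them), and each library was kept as 1 replicate. The common dispersion corresponds to a coefficient of variation of 1.47%, a small spread beyond counting. With a median of 31.2 fragments per library at a desert interval, counting error limits most of them. No genome was used, so interval sequences were not read and the planned motif search was run on RefSeq promoters instead. Alternatives were DESeq2 1.42.0, other scalings and filters, a replicate block, other distance limits and each library left out. One of the called intervals is counted but not reported here by name.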

Additional observations from a re-analysis of the deposited data

How the results depend on the processing

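With 31.2 fragments at the median interval, counting noise limits what can be called. The 15 closed desert intervals of 587 were 3 of 468 with DESeq2 and 8 of 437 with a mean of at least 20 counts. With an assumed variation of 10% between cultures 6 of 587 closed, with loess offsets 18 of 587 and without the filter 16 of 594. The count was 5 to 11 when 1 library was left out (5 without Nr6a1OE 1 or mScarlet 1). Shares of all intervals closed are given above for DESeq2 and for the fits without 1 library. For the other settings in this paragraph they are not given, so those counts do not tell whether deserts moved relative to the background. The 2 opened were 1 with DESeq2, 1 with 10% variation and 1 to 3 with 1 library left out. Beyond 1000 kb 0 of 109 tested intervals opened (0%), too few to tell this share from the background of 0.469%. The desert median relative to 1 to 100 kb differed by -0.0232 with at least 20 counts, and relative to 100 to 500 kb by 0.00954, the opposite sign to the value reported. Closed sums were 3 with chromosome medians removed, 2 with DESeq2 and 2 to 5 with 1 library left out, and the 1 opened sum stayed in each. Shares of all summed loci under these settings are not given. The cause of these changes was not tested.

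No pairing of libraries by replicate number was seen (correlations of deviations 0.0044, -0.0022 and -0.0063, against -0.0098 to 0.0122 for unlike numbers). Deviations within a group lie close to counting noise, so this cannot exclude pairing. With a replicate block 15 desert intervals closed (2.56%, beside 1.19% of all intervals). In that fit 2 desert intervals opened, 5 desert sums closed and 1 opened, and the shares over all intervals or sums are not given for these.

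Among named values near 0 that were not called, the fits that left out 1 library ran across 0. They spanned -0.00141 to 0.0783 at Tenm3, -0.0941 to 0.0332 at the strongest interval of Zfp608–Gramd3 and -0.0561 to 0.0181 at Tmem182–Pou3f3. The sums spanned -0.09998 to 0.0202 for Celf4–Pik3c3, -0.0444 to 0.0612 for Slc10a2–Efnb2, -0.0677 to 0.0919 for Zeb2–Acvr2a and -0.0314 to 0.0383 for Pou3f2–Mms22l. Of the other values of named intervals and sums under alternatives, 344 kept direction and side of the threshold and 85 kept direction but no longer passed.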

Other observations

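Medians of desert intervals were set beside those of the other intervals on the same chromosome. Chromosome 13 held 3 closed desert intervals of 34 (8.82%) and 1 opened (2.94%), beside backgrounds of 1.26% and 0.469%. There 26 of the 34 were below 0, with a median log2 fold change of -0.20, against -0.01 over the other 2170 intervals tested. Many of the 34 are in 2 loci, Nr2f1–Arrdc3 with 7 of 11 below 0 and Pde4d with 9 of 10. On chromosome 14 the median was -0.16 over 35 desert intervals, against 0.01 over 1833 others. On chromosome 15, with the Myc–Gsdmc desert, it was 0.08 over 21 desert intervals, of which 7 were below 0, against 0.01 over 2043 others. These chromosomes were picked after all 17 had been seen, and the values carry no test.

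Of 75 desert intervals at noncoding genes 2 closed (2.67%) and 38 were below 0 (50.7%, median log2 fold change -0.01). Of 512 at no noncoding gene 13 closed (2.54%) and 301 were below 0 (58.8%, median -0.07). Over all intervals tested 1.26% closed and 49.2% were below 0. These values carry no test.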
